A study of Mus musculus with 18 samples.

Results

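The cells described here are the splenic CD4 T cells that the authors' deposited annotation places in an Irf7 cluster, Tconv_resting_Irf7 or Tconv_activated_Irf7. Tconv are conventional CD4 T cells, the non-regulatory ones. Of 26652 cells in the series, 2175 carry such a name (8.16%): 2068 in the resting class, beside 17679 other resting Tconv cells, and 107 in the activated class, beside 4790 other activated Tconv cells. The annotation rests on clustering of the cells' own RNA, so what separates these cells from their class is given as a description with no test.

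RNA of single cells sorted as live TCRβ+ CD4+ from spleens of male mice was counted by unique molecular identifiers (UMIs) on 10x Genomics kits. In the first experiment (V2 kit), ∆Foxp3 mice aged 3 weeks, on a B6 background with the Foxp3DeltaEGFPiCre allele and a ROSA-YFP reporter, stood against WT mice aged 3 weeks with a Foxp3-IRES-GFP reporter, 2 samples each (A and B). Foxp3, which lies on the X chromosome, encodes the lineage factor of regulatory T cells (Treg), so these males carry the altered allele alone. In the second experiment (V3 kit), ∆Foxp3 mice aged 3 weeks stood against WT Foxp3-IRES-GFP x CD45.1 mice aged 9 weeks, 2 samples each, so genotype, age and the CD45.1 background cannot be told apart there. The same experiment held mixed bone marrow chimeras: CD45.2 recipients, 7 weeks old at transplant and given 1000 rad, received CD3-depleted marrow cells, 50% from each donor. Cells of ∆Foxp3 origin (CD45.1+ CD45.2+) and of WT origin (CD45.1+ CD45.2-) were sorted 10 weeks later, at a labelled age of 16 weeks, 3 samples each, and the same number marks the same recipient. Genotype and CD45 background cannot be told apart in the chimeras either. Sorted GFP+ Treg and GFP- Tconv cells of 9-week-old WT mice, 2 samples each, complete the set. In the V3 mouse groups both samples of a group carry 1 hashtag in both 10x channels and may be 1 mouse. No label names the animals of the V2 samples. The spread between samples of these groups may thus be technical. The V3 p-values rest on 1 spread estimated over 12 V3 samples, chimeras and sorted Tconv cells included, and the V2 p-values on the 4 V2 samples.

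Type I interferons (the IFN-α family and IFN-β) signal through the receptor IFNAR and the kinases JAK1 and TYK2 to genes that carry the interferon-stimulated response element (ISRE). IFN-γ, a product of activated T and NK cells, signals mainly to genes that carry the GAS element. Both induce antiviral genes, with much overlap. Irf7 encodes a transcription factor that amplifies the type I response, Ifit1 and Ifit3 encode proteins that bind viral RNA or the complexes acting on it, and Isg15 encodes a ubiquitin-like protein that is attached to other proteins. T cells with this signature have been seen in spleens of healthy mice as well as in infection.

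The promoters of the 4 marker genes and of Gbp2, an IFN-γ-inducible GTPase that is described further on, are printed so that the elements named above can be seen beside the genes that carry them. Each is the stretch of 250 bases before the RefSeq start (GRCm38.p6), 5′ to 3′ along the gene, with matches to GAAANNGAAA on either strand in capitals. Their positions are chr7:141266425-141266674 (minus strand) for Irf7, chr19:34640639-34640888 (plus) for Ifit1, chr19:34583279-34583528 (plus) for Ifit3, chr4:156200819-156201068 (minus) for Isg15 and chr3:142620413-142620662 (plus) for Gbp2.
Irf7: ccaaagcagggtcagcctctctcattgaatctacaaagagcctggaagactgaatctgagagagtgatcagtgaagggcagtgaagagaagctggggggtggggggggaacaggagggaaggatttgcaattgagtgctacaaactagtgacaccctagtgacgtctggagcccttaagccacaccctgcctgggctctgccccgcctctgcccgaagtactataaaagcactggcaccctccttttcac
Ifit1: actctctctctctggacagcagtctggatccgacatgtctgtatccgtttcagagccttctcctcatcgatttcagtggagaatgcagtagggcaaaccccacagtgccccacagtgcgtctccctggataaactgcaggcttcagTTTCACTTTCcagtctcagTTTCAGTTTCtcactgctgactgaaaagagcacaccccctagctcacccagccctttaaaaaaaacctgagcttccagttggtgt
Ifit3: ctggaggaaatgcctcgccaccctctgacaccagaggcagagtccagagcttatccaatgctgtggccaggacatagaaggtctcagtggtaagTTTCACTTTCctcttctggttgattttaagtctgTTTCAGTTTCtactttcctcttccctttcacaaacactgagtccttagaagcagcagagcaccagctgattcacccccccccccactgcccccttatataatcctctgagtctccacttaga
Isg15: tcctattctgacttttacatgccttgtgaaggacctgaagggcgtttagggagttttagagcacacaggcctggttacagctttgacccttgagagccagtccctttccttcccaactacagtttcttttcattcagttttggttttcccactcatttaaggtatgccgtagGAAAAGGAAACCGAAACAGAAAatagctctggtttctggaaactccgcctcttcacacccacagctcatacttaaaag
Gbp2: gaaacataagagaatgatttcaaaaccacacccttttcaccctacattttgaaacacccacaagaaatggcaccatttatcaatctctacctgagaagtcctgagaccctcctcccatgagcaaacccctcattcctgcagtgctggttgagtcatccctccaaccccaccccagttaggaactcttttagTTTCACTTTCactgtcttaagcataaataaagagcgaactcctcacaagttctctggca

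The match blocks begin 104 and 85 bases before the start of Ifit1, 156 and 122 before that of Ifit3, 78 before that of Isg15, where 3 overlapping matches form 1 block, and 59 before that of Gbp2. No match lies in the Irf7 window, and none of the 5 windows holds TTCNNNGAA, the GAS pattern, on either strand. Among 32851 RefSeq promoters of this length, 978 hold the ISRE pattern (2.98%) and 2306 hold the GAS pattern (7.02%). Of the 20 genes that stood highest in resting Irf7 cells, 13 have a promoter in that table, of which 9 hold the ISRE pattern and 4 the GAS pattern. In the GENCODE vM21 annotation of GRCm38, Ifit1 spans bases 34640871 to 34650009 and Ifit3 bases 34583531 to 34588731 of chromosome 19, both on the plus strand. Irf7 spans bases 141262706 to 141266481 of chromosome 7, and Isg15 spans bases 156199424 to 156200818 of chromosome 4, both on the minus strand.

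The 18 samples held 955097 to 14887898 UMIs. Irf7-annotated cells numbered 365 and 119 in the ∆Foxp3 V2 samples, 347 and 301 in the WT V2 samples, 68 and 42 in the ∆Foxp3 V3 mice, and 76 and 32 in the 9-week-old WT mice. The chimeras gave 189, 72 and 235 such cells of ∆Foxp3 origin, against 56, 153 and 70 of WT origin. The sorted Tconv samples gave 35 and 15 cells, and the sorted Treg samples gave 0 of 331 and 0 of 231 cells, with exact upper limits of 1.11% and 1.58%. Libraries shared 99 barcodes, carried by 198 cells of which 14 are Irf7-annotated. The authors' fraction of reads within called cells came to 0.597 and 0.534 in the ∆Foxp3 V2 libraries, against 0.791 and 0.795 in the WT V2 libraries, so a larger share of reads in the ∆Foxp3 libraries lay outside called cells.

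The 4 marker genes matched the annotation: each was higher in the Irf7 cells than in the other resting cells in all 16 samples. Over these samples, Irf7 had a lowest, median and highest level of 115, 202 and 359 CPM (a gene's UMIs scaled to a common total) in Irf7 cells, against 29.1, 42.1 and 105 CPM in the other resting cells. Ifit1 had 75, 408 and 594 CPM in Irf7 cells, against 5.15, 22.1 and 84.3 CPM in the others. Ifit3 had 57.5, 230 and 471 CPM in Irf7 cells, against 3.46, 9.04 and 50.6 CPM in the others. The highest other cells are those of the ∆Foxp3 V2 mice, and the lowest Irf7 cells are those of the ∆Foxp3 V3 sample 1. Isg15 had 85.0, 436 and 941 CPM in Irf7 cells, against 16.8, 35.1 and 161 CPM in the other resting cells. As median differences of log2(CPM + 5) over samples, which understates low genes, Ifit3 stood 4.08 higher, Ifit1 3.77, Isg15 3.38 and Irf7 2.26.

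**Figure D1:**
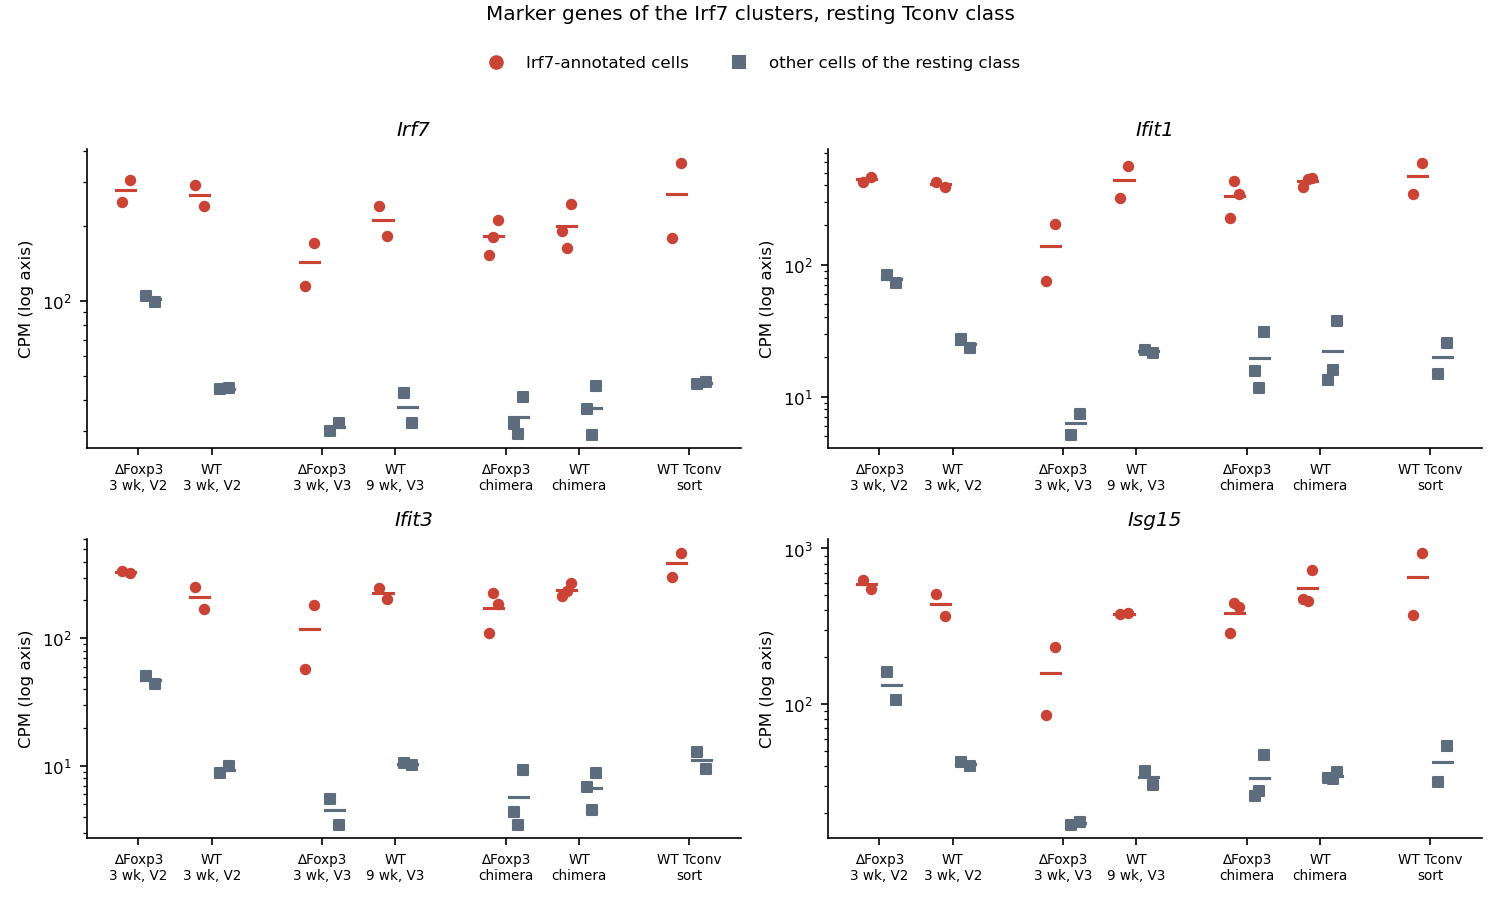
CPM of Irf7, Ifit1, Ifit3 and Isg15 (log axes) in Irf7-annotated cells (red circles) and in the other cells of the resting class (grey squares), 1 point per sample, with bars at the group means and ∆Foxp3 left of its WT group. In every sample the Irf7 cells lie above the other cells, and the step is smallest in the ∆Foxp3 V2 mice, where the other cells reach 105 CPM of Irf7.

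The step between the Irf7 cells and their class differed between groups. For Ifit1 the difference in log2(CPM + 5) was 2.27 and 2.60 in the ∆Foxp3 V2 samples, against 3.73 and 3.81 in the WT V2 samples. For Irf7 it was 1.20 and 1.59 in the ∆Foxp3 V2 samples, against 2.59 and 2.30 in the WT V2 samples. In those mice the interferon genes were high in the other resting cells as well, and the 2 groups of samples did not overlap. In the V3 chimeras the Irf7 step was 2.08 to 2.43 in cells of ∆Foxp3 origin, against 2.23 to 2.30 in cells of WT origin, which overlapped.

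Beyond the markers, the highest genes of the resting Irf7 cells were I830012O16Rik (3.06 on the log2 scale), the Ifit3b gene, whose reads may be split with its near-identical neighbour Ifit3, and Iigp1 (3.03), an IFN-γ-inducible GTPase that acts on vacuoles of parasites. Rsad2 (2.90), whose product viperin blocks viral replication, had 7.12, 41.8 and 248 CPM as lowest, median and highest level in Irf7 cells, against 0, 1.07 and 1.91 CPM in the other resting cells. Usp18 (2.51), which removes ISG15 from proteins and dampens IFNAR signalling, Rtp4 (2.48), Isg20 (2.10), an RNA exonuclease, and Xaf1 (1.98) followed. The GTPases Igtp (2.11), Gbp6 (2.09), Gbp2 (1.99), Gbp7 (1.88) and Irgm1 (1.78) were also among the 20 highest. So were Zbp1 (1.83), a sensor of Z-form nucleic acid, Bst2 (1.76), which tethers budding virus particles, Parp14 (1.74) and Rnf213 (1.74).

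Among genes with at least 50 CPM, those lower in every sample moved little. At 5 CPM or more, medians of single immediate early genes reached -1.40. Dusp2, a phosphatase that acts on MAP kinases and is induced after T cell receptor stimulation, had a lowest, median and highest level of 44.8, 97.6 and 310 CPM in Irf7 cells, against 105, 150 and 430 CPM in the other resting cells. Its median difference was -0.63. Gpr183, a receptor for oxysterols that guides cells within the spleen, was at -0.46, Ier2, an immediate early gene, at -0.36, and Orai1, the pore of the calcium channel opened after receptor stimulation, at -0.35. The remaining genes of the 10 lowest, among them Ncl, Eif4a1 and Ptma, lay between -0.28 and -0.13.

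**Figure D2:**
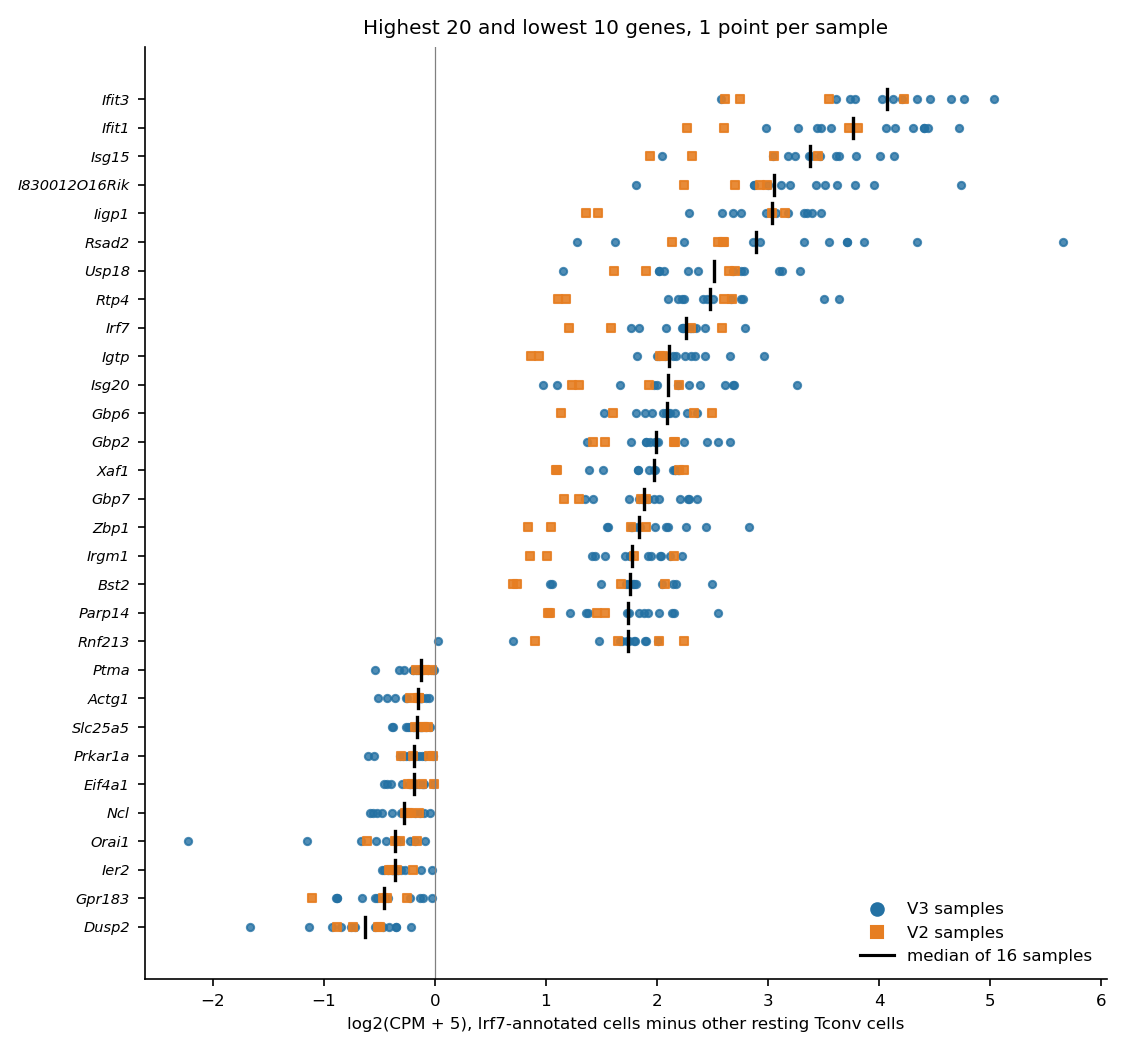
Difference in log2(CPM + 5) between Irf7-annotated cells and the other resting Tconv cells for the 20 highest and the 10 lowest genes, 1 point per sample (16 samples), with orange squares for V2 samples, blue circles for V3 samples and black bars at the medians. The interferon genes reach 4.08, while the lowest gene stands at -0.63.

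Lists of pathway genes gave the same account by counts. Of 12 IFIT and OAS genes with at least 5 CPM, 7 were higher in the Irf7 cells of every sample (median 1.49). The same held for 31 of 48 other type I effectors (1.17), 11 of 16 genes of the ISG15 and ubiquitin pathway (1.32) and 14 of 16 IFN-γ-inducible GTPases (1.55). It also held for 9 of 20 genes of MHC class I and antigen processing, whose median was smaller (0.39), 5 of 10 nucleic acid sensors (0.76) and 7 of 16 signalling genes (0.22). Over all 8453 genes at that level, 123 were higher in every sample (1.46%) and 16 were lower (0.189%), with a median of -0.04. Immediate early genes were lower in every sample for 4 of 12 (median -0.33), while lists of naive and resting genes (-0.06) and of T cell identity (-0.02) held none that differed one way throughout. Of 12 interferon genes (ligands), 1 had at least 5 CPM, Ifng, with a median difference of -0.11.

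Single cells varied within the clusters. After thinning each cell to 1500 UMIs, which left out 0 cells, resting Irf7 cells of the ∆Foxp3 V2 samples held a median of 24 and 24 UMIs from 80 type I genes, against 16 and 16 in the other resting cells. In the WT V2 samples the medians were 20 and 17 in Irf7 cells, against 10 and 10 in the others. In the V3 samples they were 13 to 27 in Irf7 cells, against 8 to 11 in the others. The annotation is not a cut on this sum: between 1.05% and 18.0% of the other resting cells of a sample reached the median of its Irf7 cells. Without thinning, 9.32% of the Irf7 cells of the ∆Foxp3 V2 sample A held no UMI of any of the 4 marker genes, against 37.4% of its other resting cells, and in the WT V2 sample A the shares were 19.5% and 75.1%.

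The Irf7 cells were T cells by their markers. All 10 T cell identity genes were detected in each group's Irf7 cells, with a summed level of 4879 to 7479 CPM in the ∆Foxp3 mice, against 4768 to 7087 CPM in the WT mice of both kits. Of 9 markers of plasmacytoid dendritic cells, the body's main source of type I interferon, Cd209d, Cox6a2 and Klk1 were at 0 in the Irf7 cells of all 7 groups, and Siglech was at 0 in all but those of WT chimera origin. The sum of that list was 185 to 499 CPM over the samples, and Bst2, which interferon induces in many cells, made up most of it. B cell markers summed to 146 to 362 CPM over the samples, and myeloid markers to at most 205 CPM. Erythroid markers summed to 145 and 653 CPM in the ∆Foxp3 V2 samples, against 157 and 160 CPM in the WT V2 samples, and to 2721 CPM in the WT chimera sample 3. Their part in the comparisons below was not tested beyond leaving out cells that carry such UMIs.

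The smaller activated Irf7 cluster held the same genes at the top. The 4 samples with at least 10 such cells were ∆Foxp3 V2 A (11 cells), WT V2 A (18), ∆Foxp3 chimera 3 (17) and WT chimera 2 (11). Against the other activated cells of the same sample, the median difference in log2(CPM + 5) was 4.44 for Ifit1, 4.36 for Ifit3, 3.87 for I830012O16Rik, 3.85 for Isg15, 3.67 for Ifi204, 3.64 for Rsad2 and 2.61 for Irf7. Isg15 reached 1453 CPM in the Irf7 cells of ∆Foxp3 V2 A and 1090 CPM in those of WT V2 A, against 97.7 and 93.8 CPM in their other activated cells. Genes of proliferation were lower in the Irf7 cells of all 4 samples for 8 of 20 members (median -0.97), where 12.9% of all 9060 genes were lower in all 4. The other activated cells include the authors' cluster of dividing cells (594 in the series), so this difference is not independent of the annotation. The thinned type I sum had medians of 30 to 42 UMIs in these cells, against 12 to 14 in the other activated cells. With 1 such sample in each group, no test between genotypes was possible for the activated cluster.

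The share of the resting class that was Irf7-annotated is a description, since interferon genes define the cluster and differ between the groups in the other cells too. It was 14.8% and 14.4% in the ∆Foxp3 V2 samples, with exact 95% intervals from 13.4% to 16.3% and from 12% to 17.1%, against 7.47% and 9.08% in the WT V2 samples, from 6.71% to 8.28% and from 8.11% to 10.1%. It was 13.7% and 9.62% in the ∆Foxp3 V3 mice, against 10.6% and 10.7% in the 9-week-old WT mice. Among chimera samples it was 10.2%, 10.3% and 12.3% in cells of ∆Foxp3 origin, against 10.5%, 10.3% and 10.8% in cells of WT origin, and the sorted Tconv samples had 11% and 12%. The V2 groups did not overlap, while the V3 mouse groups and the chimera groups did. Without cells that held other cells' markers the V3 mouse groups no longer overlapped, at 19.4% and 17.9% in the ∆Foxp3 mice (24 of 124 and 14 of 78 cells), against 9.94% and 11.6% in the 9-week-old WT mice. The markers of that filter include Ccr9, which is also in the naive and resting list, and Cd74, so a removed cell need not be foreign. The filter took out cells unequally. In the ∆Foxp3 V3 mice it removed 75.7% and 83.4% of the other resting cells, against 63.1% and 65.9% of the Irf7 cells. In the 9-week-old WT mice it removed 52.2% and 66.4%, against 55.7% and 63.0%.

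As shares of all cells of a sample, which also fall when the resting class shrinks, resting Irf7 cells were 10.8% and 7.77% in the ∆Foxp3 V2 samples, against 6.24% and 7.45% in the WT V2 samples. They were 6.49% and 4.38% in the ∆Foxp3 V3 mice, against 8.60% and 7.67% in the 9-week-old WT mice, so the order of those 2 groups depends on the denominator. In the chimeras they were 8.61%, 7.37% and 10.5% of cells of ∆Foxp3 origin, against 7.23%, 7.68% and 7.87% of cells of WT origin. Within the activated class the Irf7 share was 1.53% and 1.27% in the ∆Foxp3 V2 samples, against 3.05% and 1.84% in the WT V2 samples, and 0.652% and 0.225% in the ∆Foxp3 V3 mice, against 5.04% and 7.14% in the 9-week-old WT mice. These rest on 1 to 18 cells each. Intervals cover counting error only.

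**Figure D3:**
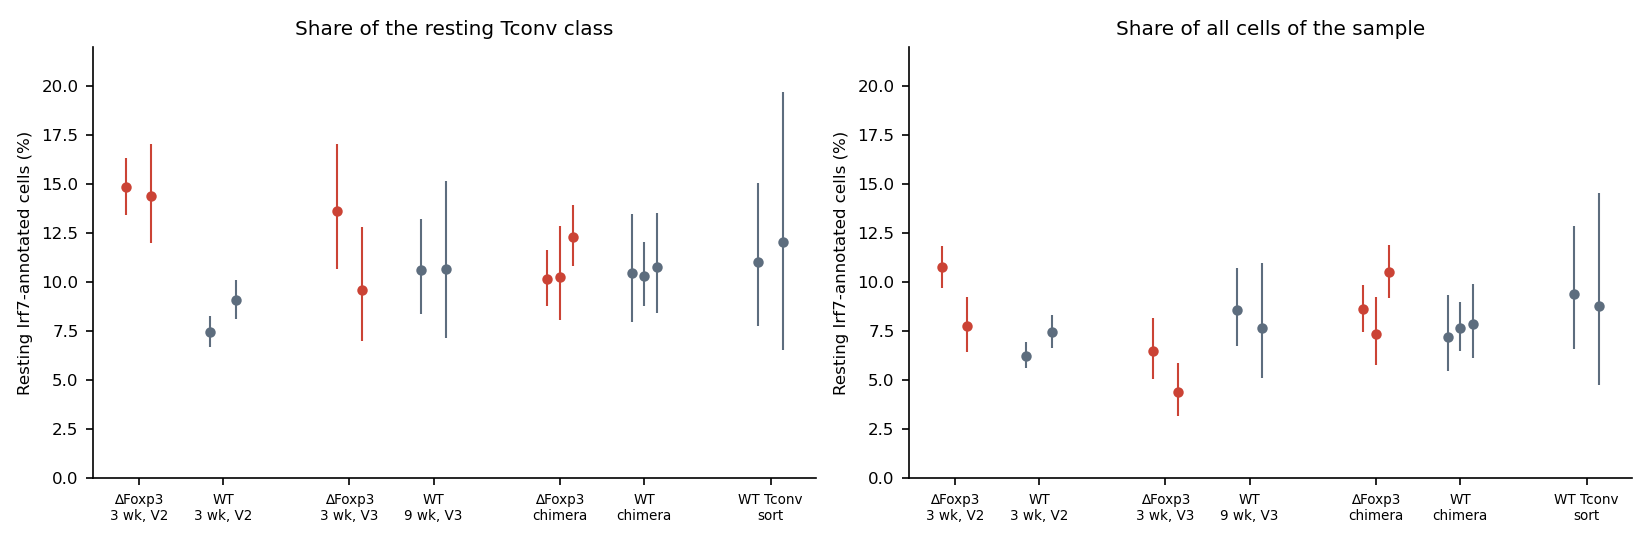
Resting Irf7-annotated cells as a percent of the resting Tconv class (left) and of all cells of the sample (right), 1 point per sample with its exact 95% binomial interval, ∆Foxp3 in red and WT in grey. The share of the class is 14.8% and 14.4% in the ∆Foxp3 V2 samples, against 7.47% and 9.08% in the WT V2 samples, and overlaps between the chimera groups.

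Within the resting Irf7 cells of 3-week-old mice (V2), most of the listed IFN-γ-inducible GTPases were higher in ∆Foxp3 cells. The 4 marker genes did not pass the test. Type I interferons and IFN-γ induce overlapping genes, and which of them acted was not tested. UMIs were summed over the Irf7 cells of each sample and tested with edgeR's quasi-likelihood test, and genes with a Benjamini-Hochberg adjusted p under 0.05 were called. Of 6184 genes tested, 378 passed (6.11%), 205 of them higher in ∆Foxp3 cells (3.32%) and 173 lower (2.8%). Interferon genes also lead the cluster, so their level within it is not independent of which cells the annotation took in.

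Irf7 had 249 and 306 CPM in ∆Foxp3 cells, against 293 and 240 CPM in WT cells, and the samples overlapped. Ifit1 had 426 and 466 CPM in ∆Foxp3 cells, against 424 and 392 CPM in WT cells. Ifit3 had 335 and 325 CPM in ∆Foxp3 cells, against 252 and 170 CPM in WT cells, and Isg15 had 631 and 548 CPM, against 513 and 369 CPM. For Ifit1, Ifit3 and Isg15 both ∆Foxp3 samples lay above both WT samples, narrowly so for Ifit1. The log2 fold changes were -0.05 ± 0.15 for Irf7 (SE, adjusted p = 0.90), 0.05 ± 0.12 for Ifit1 (0.884), 0.57 ± 0.16 for Ifit3 (0.0587) and 0.36 ± 0.15 for Isg15 (0.182). Ifit3 passed without TMM scaling (adjusted p = 0.0295), without the filter on low counts (0.0064) and without WT sample A (0.00742).

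Of 16 IFN-γ-inducible GTPases tested, 15 rose in ∆Foxp3 cells, with a list median of 1.41 on the log2 scale, beside a median of -0.02 over all genes tested. Gbp2 had 1249 and 1553 CPM in ∆Foxp3 cells, against 181 and 170 CPM in WT cells, and its ISRE match is printed above. The samples lay far apart, with a log2 fold change of 2.91 ± 0.13 (adjusted p = 9.47e-08). Iigp1 had 758 and 809 CPM in ∆Foxp3 cells, against 135 and 122 CPM in WT cells (2.53 ± 0.13, adjusted p = 1.74e-07). Igtp, which helps guide such GTPases to their targets, had 973 and 977 CPM in ∆Foxp3 cells, against 324 and 317 CPM in WT cells, and Gbp4 had 376 and 389 CPM, against 126 and 129 CPM.

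The list's sum was higher in the other cells of ∆Foxp3 mice too. It was 5615 and 5978 CPM in ∆Foxp3 Irf7 cells, against 1662 and 1696 CPM in WT Irf7 cells, and 2637 and 2680 CPM in the other resting cells of ∆Foxp3 mice, against 492 and 478 CPM in those of WT mice. The other resting cells of the ∆Foxp3 mice thus exceeded the WT Irf7 cells. For the IFIT and OAS genes this was not so: their sum was 1199 and 1219 CPM in ∆Foxp3 Irf7 cells, against 1024 and 858 CPM in WT Irf7 cells, and 297 and 251 CPM in the other resting cells of ∆Foxp3 mice, against 118 and 123 CPM in those of WT mice.

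**Figure D4:**
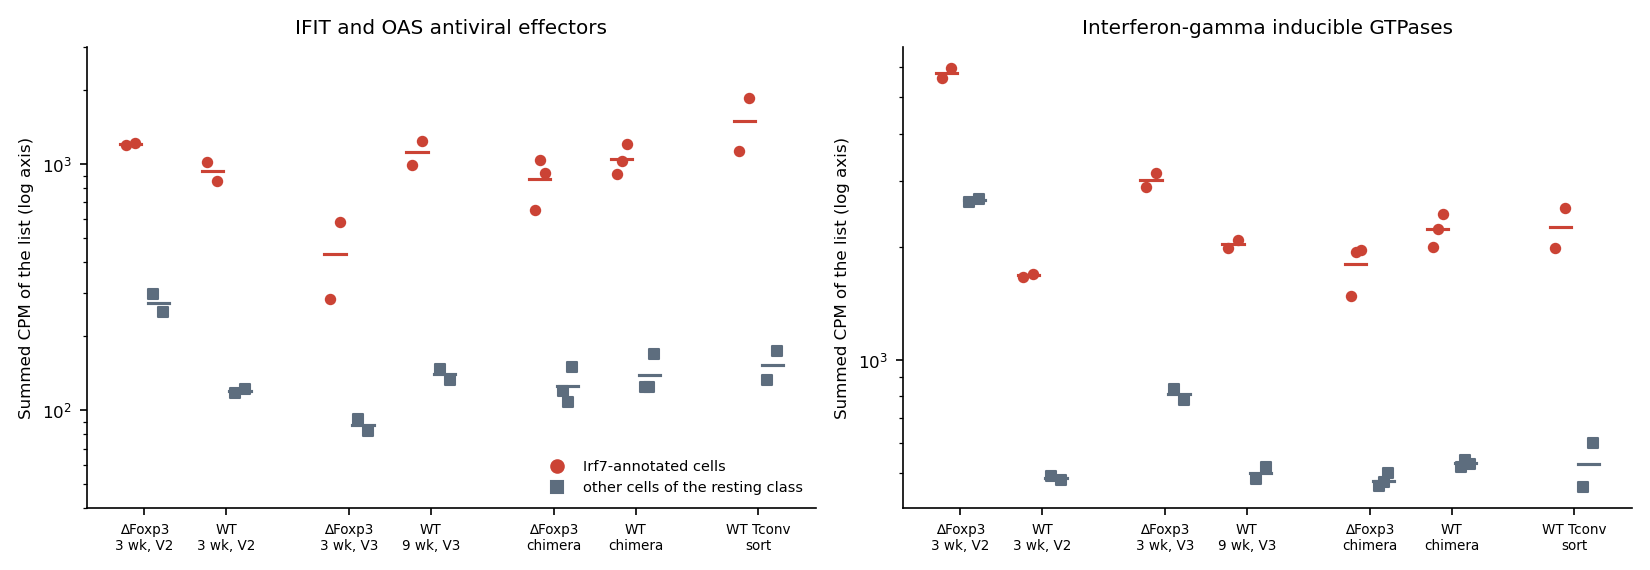
Summed CPM (log axes) of the IFIT and OAS antiviral effectors (left) and of the IFN-γ-inducible GTPases (right) in Irf7-annotated cells (red circles) and in the other resting cells (grey squares), 1 point per sample with bars at the group means, ∆Foxp3 left of its WT group. The GTPase sum of the other resting cells is 2637 and 2680 CPM in the ∆Foxp3 V2 mice, above the 1662 and 1696 CPM of the WT Irf7 cells, while in the left panel the other cells stay below the Irf7 cells of every V2 sample.

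Antigen presentation rose with the GTPases, for 12 of 19 genes tested (median 0.87). Psmb8, a subunit of the immunoproteasome, had 1785 and 1572 CPM in ∆Foxp3 cells, against 864 and 814 CPM in WT cells (0.93 ± 0.09, adjusted p = 6.37e-05), and Psmb10 had 561 and 539 CPM, against 260 and 245 CPM. Of 10 negative regulators of interferon and cytokine signalling, 5 rose (median 0.87). Socs1, an inhibitor of JAK kinases, had 263 and 325 CPM in ∆Foxp3 cells, against 54.3 and 50.9 CPM in WT cells (2.36 ± 0.17, adjusted p = 2.88e-06). Socs3 had 164 and 239 CPM in ∆Foxp3 cells, against 55.4 and 61.5 CPM in WT cells.

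Among signalling genes, 3 of 15 rose. Irf1, a target and effector of IFN-γ, had 362 and 349 CPM in ∆Foxp3 cells, against 148 and 149 CPM in WT cells (1.19 ± 0.13, adjusted p = 0.000113). Irf8, a transcription factor that IFN-γ also induces, was at 78.0 and 36.8 CPM in ∆Foxp3 cells, against 7.60 and 13.0 CPM in WT cells, and lost its call without ∆Foxp3 sample A (adjusted p = 0.228). Of the 6 sensors tested, Zbp1 rose, with 581 and 674 CPM in ∆Foxp3 cells, against 300 and 261 CPM in WT cells.

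The lists of type I effectors had lower medians, with members that moved in both directions. Of 10 IFIT and OAS genes tested, 2 rose (median 0.27): I830012O16Rik (111 and 76.6 CPM in ∆Foxp3 cells, against 50.0 and 59.1 CPM in WT cells) and Gm14446 (161 and 123 CPM, against 94.5 and 78.1 CPM). Both calls were lost under DESeq2 (adjusted p = 0.551 and 0.479). Of 42 other type I effectors, 8 rose and 2 fell (median -0.13), and 1 of them, Gm4951, had the highest fold change of the named genes (119 and 91.9 CPM in ∆Foxp3 cells, against 3.26 and 2.37 CPM in WT cells, 5.15 ± 0.35). Samhd1, which depletes the nucleotides that retroviruses need, rose to 1050 and 1290 CPM in ∆Foxp3 cells, against 410 and 418 CPM in WT cells. Bst2 fell to 287 and 291 CPM in ∆Foxp3 cells, against 487 and 354 CPM in WT cells (-0.62 ± 0.15, adjusted p = 0.0296), and Pyhin1 to 149 and 138 CPM, against 256 and 237 CPM, a call lost under DESeq2 (adjusted p = 0.0535). Of 16 genes of the ISG15 and ubiquitin pathway, 3 rose (median 0.41).

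Outside the interferon lists, the highest fold changes among genes that averaged 20 CPM or more and whose groups stood apart were those of Gzma, Jun, H2-DMa and Cd74. Gzma, a granzyme of cytotoxic cells, had 72 UMIs in ∆Foxp3 cells, against 3 in WT cells, a ratio of 30.2 with an exact counting interval from 9.93 to 150. Jun, an immediate early transcription factor, had 82.7 and 88.9 CPM in ∆Foxp3 cells, against 6.52 and 1.18 CPM in WT cells. Of the MHC class II pathway, H2-DMa had 569 and 319 CPM in ∆Foxp3 cells, against 20.6 and 33.1 CPM in WT cells (4.05 ± 0.28, adjusted p = 2.88e-06), and Cd74 had 144 and 187 CPM, against 8.69 and 10.6 CPM. Cd74 is also a B cell marker, and that list summed to 306 to 362 CPM in ∆Foxp3 cells, against 227 to 234 CPM in WT cells, with Cd22 and Ms4a1 at 0 in both. Cd274, the ligand PD-L1, had 41.8 and 64.3 CPM in ∆Foxp3 cells, against 5.43 and 3.55 CPM in WT cells.

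Activation genes were higher too: 7 of 19 rose and 1 fell, and 5 of 6 Th1 and cytotoxic genes rose. Ccl5 had 323 and 830 CPM in ∆Foxp3 cells, against 78.2 and 81.6 CPM in WT cells, and S100a4 had 65.0 and 73.5 CPM, against 6.52 and 7.10 CPM. By the same limits, the largest falls were those of Ctse, which encodes cathepsin E, with 14.9 and 30.6 CPM in ∆Foxp3 cells, against 190 and 187 CPM in WT cells (-3.39 ± 0.24, adjusted p = 2.88e-06), and Cd55, an inhibitor of complement (-3.03). Cdc42ep3 (-2.14), Lgmn (-2.00) and St8sia6 (-1.97) came next, and Dapl1 fell too, with 153 and 70.5 CPM in ∆Foxp3 cells, against 424 and 446 CPM in WT cells. Of 18 naive and resting genes 5 fell, and 7 of 11 mitochondrially encoded transcripts fell (median -0.33). Leaving out ∆Foxp3 sample A lowered the count of genes past the threshold to 172, and 76.8% of Irf7 cells in ∆Foxp3 sample B and 48.6% in sample A held at least 2 UMIs of 54 markers of other cells, against 45.9% and 37.7% in the WT samples. Over the 33 stricter markers the shares were 55.4% in ∆Foxp3 sample B and 11% in sample A, against 13.1% and 5.14% in the WT samples. The 54 markers include Ccr9, which is also in the naive and resting list, and Cd74. Across samples they flagged 37.7% to 83.4% of the resting cells, Irf7 cells and others taken apart. A flagged cell is thus not shown to be, or to carry RNA of, another cell type.

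The next test was of the difference itself, the ∆Foxp3 effect in the Irf7 cells less that in the other resting cells of the same samples. In the V2 mice 84 of 7801 genes passed (1.08%), 82 of them with a smaller or more negative effect in the Irf7 cells (1.05%) and 2 with a larger one (0.0256%). The marker genes were among the 82. The annotation used the level of such genes in each cell, so the p-values of the markers are no independent support. Irf7 had 105 and 98.7 CPM in the other resting cells of ∆Foxp3 mice, against 44.5 and 44.6 CPM in those of WT mice, a log2 fold change of 1.19, and the effect in Irf7 cells was lower by 1.29 ± 0.13 (adjusted p = 1.40e-21). Ifit1 had 84.3 and 72.6 CPM in the other resting cells of ∆Foxp3 mice, against 27.2 and 23.3 CPM in those of WT mice (1.65). The genotype effect differed by -1.63 ± 0.12 for Ifit1, -1.81 ± 0.17 for Ifit3 and -1.42 ± 0.11 for Isg15.

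In the same test 10 of 16 GTPases had a smaller effect in the Irf7 cells (median -1.01), with Iigp1 at -2.25 ± 0.16. So had 17 of 45 other type I effectors, 6 of 16 genes of the ISG15 pathway and 4 of 12 IFIT and OAS genes, but only 1 of 20 genes of MHC class I and antigen processing (H2-Q7). The median over all genes was -0.02. The annotation used the level of such genes in each cell, so this difference is not independent of it. This fit had 2 residual degrees of freedom and a spread of 0.0143 (biological coefficient of variation), and 19 genes passed when sample was not a block. Its prior degrees of freedom were infinite, so the spread was not estimated gene by gene, and the very small p-values rest on that.

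**Figure D5:**
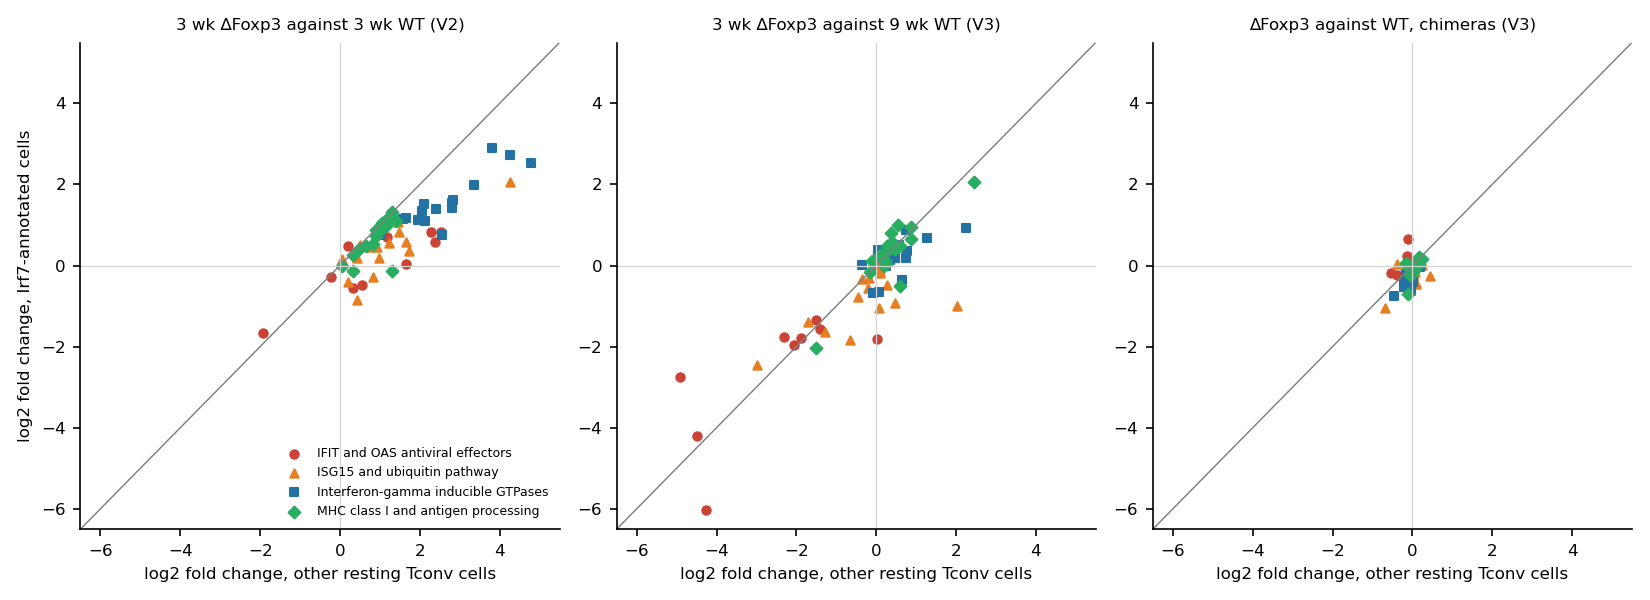
Log2 fold change of ∆Foxp3 over WT in Irf7-annotated cells (vertical axis) against that in the other resting Tconv cells (horizontal axis) for the genes of 4 lists tested in both, with 1 point per gene, 1 panel per comparison, and a grey line where both are equal. In the V2 mice most GTPases (blue squares) lie below the line, with Gbp2 at 2.91 in Irf7 cells and 3.8 in the others, and in the chimeras the points lie closer to 0 than in the other panels.

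In the V3 mice, the 4 marker genes and most IFIT and OAS genes were lower in ∆Foxp3 Irf7 cells (3 weeks) than in WT Irf7 cells (9 weeks). Activation and cytotoxic genes were higher, and the GTPases for the most part did not pass the test. Type I genes were not lower as a whole. For the thinned sum of 80 type I genes, medians were 16 and 21 UMIs in ∆Foxp3 cells, against 15 and 17 in WT cells. The other type I effectors summed to 9322 and 11403 CPM in ∆Foxp3 cells, against 11382 and 10859 CPM in WT cells, which overlapped. Of 5266 genes tested, 687 passed (13%), 335 higher (6.36%) and 352 lower (6.68%) in ∆Foxp3 cells. Without TMM scaling, that is, on total UMIs, 783 of 983 calls were higher, and the median of all genes was 0.32, where it was 0.02 with TMM. The ∆Foxp3 Irf7 cells were shallower than the other resting cells of their samples, with median UMIs of 5079 and 5750, against 6541 and 8212.

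Ifit1 had 75 and 203 CPM in ∆Foxp3 cells, against 322 and 557 CPM in WT cells (-1.95 ± 0.28, adjusted p = 1.34e-07). Isg15 had 85.0 and 231 CPM in ∆Foxp3 cells, against 378 and 386 CPM in WT cells (-1.65 ± 0.28, adjusted p = 1.15e-05). Ifit3 had 57.5 and 182 CPM in ∆Foxp3 cells, against 248 and 204 CPM in WT cells, and Irf7 had 115 and 171 CPM, against 240 and 182 CPM. For all 4 genes ∆Foxp3 sample 1, the lower one, lay far below WT, while sample 2 lay just under the lower WT sample for Ifit3 and Irf7. Without sample 1, Ifit3 (-0.65, adjusted p = 0.23) and Irf7 (-0.65, adjusted p = 0.198) lost their calls, and without WT sample 1 both did too (adjusted p = 0.11 and 0.318). Without cells that held at least 2 UMIs of other cells' markers, no call of the 4 marker genes was kept (adjusted p = 0.0789 for Ifit1, 0.194 for Isg15, 0.312 for Ifit3 and 0.651 for Irf7). Under DESeq2, Ifit3 (0.167) and Isg15 (0.0561) lost theirs.

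Of 10 IFIT and OAS genes tested, 9 fell in ∆Foxp3 cells (median -1.80). Oasl2 had 5.0 and 21.4 CPM in ∆Foxp3 cells, against 66.6 and 66.2 CPM in WT cells (-2.75 ± 0.52, adjusted p = 6.61e-05), and Gm14446 had 32.5 and 24.9 CPM, against 85.3 and 82.8 CPM. Of 44 other type I effectors 17 fell and 3 rose (median -0.43), with Rsad2 at 12.5 and 7.12 CPM in ∆Foxp3 cells, against 45.3 and 77.2 CPM in WT cells, a call lost without WT sample 2 (adjusted p = 0.0538). Ifi27l2a, whose product resides at mitochondria and the nuclear envelope, had 1192 and 1142 CPM in ∆Foxp3 cells, against 2465 and 2257 CPM in WT cells (-1.31 ± 0.14, adjusted p = 1.58e-10). Slfn5 had 27.5 and 32.0 CPM in ∆Foxp3 cells, against 107 and 88.3 CPM in WT cells, and Usp18, of the ISG15 pathway in which 4 of 16 genes fell, had 10.0 and 24.9 CPM, against 74.6 and 71.7 CPM.

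The GTPases did not follow: 1 of 15 rose and none fell (median 0.19). Their sum was 2892 and 3135 CPM in ∆Foxp3 cells, against 1983 and 2080 CPM in WT cells. Iigp1, the 1 that passed, had 332 and 377 CPM in ∆Foxp3 cells, against 179 and 188 CPM in WT cells (0.67 ± 0.23, adjusted p = 0.0443), and lost its call under DESeq2 (adjusted p = 0.238) and without any 1 of the 4 samples (adjusted p = 0.112 to 0.386). Gbp2 had 225 and 345 CPM in ∆Foxp3 cells, against 165 and 149 CPM in WT cells (0.52, adjusted p = 0.107). Of 20 genes of MHC class I and antigen processing, 9 rose and 1 fell (median 0.42). H2-D1, a classical class I heavy chain, had 3217 and 3082 CPM in ∆Foxp3 cells, against 1804 and 1942 CPM in WT cells, a call lost without cells that held other cells' markers (adjusted p = 0.0856), and H2-Q7 had 727 and 705 CPM, against 304 and 309 CPM.

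The receptors and regulators split. Ifngr1, the ligand-binding chain of the IFN-γ receptor, had 527 and 498 CPM in ∆Foxp3 cells, against 80.0 and 60.7 CPM in WT cells (2.52 ± 0.21, adjusted p = 2.27e-14). Ifngr2, the chain that couples to JAK2, had 12.5 and 7.12 CPM in ∆Foxp3 cells, against 53.3 and 27.6 CPM in WT cells (-2.37 ± 0.55, adjusted p = 0.00123), and lost its call without WT sample 1 (adjusted p = 0.311). Nfkbia, an inhibitor of NF-κB, had 485 and 434 CPM in ∆Foxp3 cells, against 149 and 93.8 CPM in WT cells. Of 10 negative regulators 4 rose and 1, Usp18, fell. The split of the receptor chains was not particular to the Irf7 cells. In the other resting cells Ifngr1 had 1680 and 2126 UMIs in ∆Foxp3 mice, of totals of 2911635 and 3754423. It had 255 and 103 UMIs in WT mice, of totals of 3141317 and 1576735. Ifngr2 had 23 and 20 UMIs in the other resting cells of ∆Foxp3 mice, against 102 and 48 in those of WT mice.

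Activation genes rose in 22 of 24 tested. S100a4 had 1842 and 2626 CPM in ∆Foxp3 cells, against 13.3 and 5.52 CPM in WT cells (7.37 ± 0.31), S100a6 had 1452 and 1957 CPM, against 34.6 and 22.1 CPM, and Lgals1, a galectin, had 1660 and 1527 CPM, against 125 and 110 CPM. Lgals3 had 302 UMIs in ∆Foxp3 cells, against 1 in WT cells, a ratio of 247 with an exact counting interval from 44.0 to 9778. Of 8 Th1 and cytotoxic genes, 7 rose. Nkg7, a protein of cytotoxic granules, had 580 and 598 CPM in ∆Foxp3 cells, against 8.0 and 44.1 CPM in WT cells, a call lost under DESeq2 (adjusted p = 0.0718), and Gzmb, a granzyme, had 148 UMIs, against 2, a ratio of 60.5 with an interval from 16.4 to 504. Ccl5, a chemokine, had 1982 and 1719 CPM in ∆Foxp3 cells, against 264 and 188 CPM in WT cells.

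Several genes had UMIs in ∆Foxp3 Irf7 cells and none in WT Irf7 cells, so their fold is a lower bound against 3 UMIs over the WT group. Ube2c, which acts in the exit from mitosis, was at least 23.4-fold higher in ∆Foxp3 cells, and Birc5, which encodes survivin, at least 15.0-fold, but both rest largely on ∆Foxp3 sample 2 and were at least 7.42-fold higher without it. Ube2c had 40 and 249 CPM in ∆Foxp3 cells and Birc5 40 and 139 CPM. Il18rap, a chain of the IL-18 receptor, was at least 15.3-fold higher, Serpina3f at least 15.0-fold and Gna15 at least 14.7-fold. Of 11 proliferation genes tested 6 rose. Ifitm2 had 164 UMIs in ∆Foxp3 cells, against 3 in WT cells, a ratio of 44.7 with an interval from 15.0 to 219.

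Genes of the naive state fell in 13 of 17 tested, and 1 rose (median -1.26). Dapl1 had 10.0 and 28.5 CPM in ∆Foxp3 cells, against 408 and 673 CPM in WT cells (-5.12 ± 0.42), Ctse had 10.0 and 32.0 CPM, against 136 and 166 CPM, and Il6st, the shared receptor chain for IL-6, had 10.0 and 14.2 CPM, against 77.3 and 93.8 CPM. Ccr7, which leads cells into lymph nodes, had 142 and 125 CPM in ∆Foxp3 cells, against 381 and 292 CPM in WT cells, and Lef1 had 207 and 281 CPM, against 589 and 640 CPM. Mitochondrially encoded transcripts fell in 11 of 12 tested, mt-Nd2 having 1610 and 1840 CPM in ∆Foxp3 cells, against 4315 and 4282 CPM in WT cells. T cell identity genes fell in 4 of 9. Leaving out WT sample 1 lowered the count of genes past the threshold to 320, and ∆Foxp3 sample 1 to 443.

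The authors place the V3 ∆Foxp3 cells in the resting class, but their activation and memory genes were not at a resting level. That list summed to 17660 and 18193 CPM in ∆Foxp3 Irf7 cells, against 2321 and 2251 CPM in WT Irf7 cells, and to 19656 and 21514 CPM in the other resting cells of ∆Foxp3 mice, against 2085 and 2289 CPM in those of WT mice. In the activated class of the ∆Foxp3 mice the other cells were at 30761 and 28525 CPM. In the test of the difference 22 of 8801 genes passed (0.25%), 13 with a lower effect in the Irf7 cells (0.148%) and 9 with a higher one (0.102%). The marker genes did not pass, at -0.34 ± 0.26 for Irf7, 0.26 ± 0.37 for Ifit1, 0.23 ± 0.42 for Ifit3 and -0.30 ± 0.28 for Isg15 (adjusted p = 0.952 to 0.984). Among the other resting cells, Ifit1 stood at 5.15 and 7.46 CPM for ∆Foxp3 mice, against 22.6 and 21.6 CPM for WT mice (-2.06). Ccl5 passed, at -3.86 ± 0.26, though not under DESeq2 (adjusted p = 0.309): the other resting cells had 2119 and 2046 CPM when from ∆Foxp3 mice, against 16.2 and 23.5 CPM when from WT mice, and the WT Irf7 cells were at 264 and 188 CPM already. Igfbp4 (1.84 ± 0.22), of the naive and resting list, and Ly6c1 (1.62 ± 0.22) fell less in the Irf7 cells, and Ly6c1 lost its call without cells that held other cells' markers (adjusted p = 0.652). Ly6c1 had 212 and 196 CPM in ∆Foxp3 Irf7 cells, against 306 and 265 CPM in WT Irf7 cells, and 55.0 and 38.4 CPM in the other resting cells of ∆Foxp3 mice, against 226 and 180 CPM in those of WT mice.

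In the chimeras, where both genotypes grew in the same recipients, the Irf7 cells of ∆Foxp3 origin differed from those of WT origin in few genes. Of 5266 genes tested, 10 passed (0.19%), 6 higher (0.114%) and 4 lower (0.076%) in cells of ∆Foxp3 origin, and 347 had an unadjusted p under 0.05. With the recipient as a block, 91 of 5742 passed (1.58%), 77 higher (1.34%) and 14 lower (0.244%), and 9 of the 91 also passed without the block. The origins of each recipient lay in different 10x channels: ∆Foxp3 samples 1, 2 and 3 in A, B and A, against WT samples 1, 2 and 3 in B, A and B. The block fit held no channel term, so origin and channel cannot be fully told apart within recipients.

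Irf7 had 153, 180 and 212 CPM in cells of ∆Foxp3 origin, against 191, 163 and 245 CPM in cells of WT origin. Ifit1 had 227, 434 and 343 CPM in cells of ∆Foxp3 origin, against 386, 449 and 458 CPM in cells of WT origin, and Ifit3 had 110, 226 and 186 CPM, against 215, 234 and 273 CPM. Those 3 overlapped between the origins, but Ifit1 and Ifit3 were lower in the cells of ∆Foxp3 origin of each recipient (adjusted p with the block 0.196 and 0.132). Isg15 did not overlap, with 287, 447 and 424 CPM in cells of ∆Foxp3 origin, against 474, 459 and 731 CPM in cells of WT origin. Its log2 fold change was -0.45 ± 0.16 (adjusted p = 0.316), and with the recipient as a block it passed (adjusted p = 0.00355). The samples at 287, 424 and 459 CPM lay in channel A, and those at 447, 474 and 731 CPM in channel B. The part of channel in the call with the block was not tested. The other marker genes were at -0.01 ± 0.15 for Irf7, -0.34 ± 0.16 for Ifit1 and -0.45 ± 0.17 for Ifit3 (adjusted p = 0.395 to 1.0).

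Without the block, no member passed among 10 IFIT and OAS genes (median -0.10), 44 other type I effectors (-0.15), 16 genes of the ISG15 pathway (-0.20), 15 GTPases (-0.28) or 20 genes of MHC class I and antigen processing (-0.07). The GTPase sum was 1478, 1941 and 1966 CPM in cells of ∆Foxp3 origin, against 2002, 2224 and 2443 CPM in cells of WT origin. These did not overlap, and the sum was lower in each recipient. With the block, Isg15 and Mndal (-0.36 ± 0.10, adjusted p = 0.0405) fell, and no GTPase, IFIT and OAS gene or MHC class I gene passed. The difference between Irf7 cells and other resting cells called 0 of 8801 genes with edgeR and 0 with DESeq2, and 339 had an unadjusted p under 0.05. Isg15 came nearest of the marker genes (-0.53 ± 0.13, adjusted p = 0.234), and passed without ∆Foxp3 sample 2 (0.00271) or WT sample 2 (0.0196).

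Of the 10 genes, Crip1, which encodes a small LIM protein, had 706, 599 and 642 CPM in cells of ∆Foxp3 origin, against 203, 200 and 217 CPM in cells of WT origin (1.75 ± 0.11, adjusted p = 2.59e-18). Ctse had 16.6, 21.9 and 18.6 CPM in cells of ∆Foxp3 origin, against 200, 187 and 164 CPM in cells of WT origin (-3.21 ± 0.20, adjusted p = 1.87e-18). Both stood as far apart in the other resting cells, where Crip1 had 862, 651 and 747 CPM in cells of ∆Foxp3 origin, against 215, 241 and 167 CPM in cells of WT origin. Over the 16 samples, Irf7 cells had a lowest, median and highest Crip1 level of 200, 651 and 2057 CPM, the lowest being a WT chimera sample. The origins also differ in CD45 background, whose part was not tested. Ctse fell in the Irf7 cells of all 3 comparisons, which share no samples but all set ∆Foxp3 against WT. It was low in the other resting cells of ∆Foxp3 mice too, so the fall was not particular to the Irf7 cells. There it had 74 and 37 UMIs in the ∆Foxp3 V2 samples, against 1867 and 1443 in the WT V2 samples. In the V3 mice it had 34 and 35 UMIs there, against 475 and 208 in WT mice.

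Ly6c1, a surface protein that interferon can raise, had 328, 373 and 370 CPM in cells of ∆Foxp3 origin, against 315, 208 and 217 CPM in cells of WT origin (0.65 ± 0.12, adjusted p = 0.00496). Tnfrsf4, the costimulatory receptor OX40, had 7.83, 21.9 and 10.1 CPM in cells of ∆Foxp3 origin, against 20.6, 42.7 and 35.0 CPM in cells of WT origin, which overlapped (-1.53 ± 0.34, adjusted p = 0.0255, and 0.0558 with the recipient as a block). Ttc13 (0.98), the ribosomal protein genes Rps18 (0.28) and Rps16 (0.26), RP24-312B12.1 (-1.54), and Erdr1 and Cxcl10, which the naming rule left out and were added after their values were seen, complete the 10. Cxcl10, a chemokine induced by IFN-γ, was at -2.16, and at -0.87 without WT sample 3. Of the 10, Crip1 and Ctse alone kept their calls when each chimera sample was left out in turn. Leaving out ∆Foxp3 sample 1 or WT sample 3 lowered the count of genes past the threshold to 3 and 5.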

How the data were processed

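Single-cell RNA of sorted splenic CD4 T cells was measured in 18 samples of 8 groups. Cell Ranger 3.0.2 and the mm10 build are named in the submitters' processing notes. The values used are the authors' deposited UMI counts per gene and cell, per the file headers, for 33006 genes, and the deposited table of cells, whose annotation (unit other) gave the clusters. That table's deposited percent of mitochondrial reads and doublet score were read as descriptions, as was the deposited fraction of reads in cells of the V2 libraries. Another 44 columns of it were not used. The matrix sum equalled the deposited total in 92.2% of cells. The authors' doublet call marked 0 cells and none was removed here.

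UMIs were summed per sample over the Irf7-annotated and the other cells of a class, with at least 10 cells per sample. Sums of 1 kit were fitted together with edgeR 4.0.16 (R 4.3.3) by its quasi-likelihood test, with TMM scaling, its expression filter at 10 counts and Benjamini-Hochberg adjustment over all genes tested. The difference of effects was fitted over both sums of each sample with sample as a block. Scripts were checked on simulated data. Shares have exact 95% binomial intervals, which cover counting error only. Totals of 955097 to 14887898 UMIs per sample set the precision.

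The named genes are the 4 markers, for each comparison the called genes with the 10 highest and 10 lowest fold changes whose mean reached 20 CPM and whose groups were apart, and the called genes of each list, at most 4, taken by p. For identity they are the 20 highest and 10 lowest genes with at least 50 CPM and the same sign in every sample. The members and lists were chosen with earlier results of these data known. Of the genes in the lists, 394 were found under their symbol, 12 under an older one and 4 not at all. A few genes of the lists are counted but not reported by name here.

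In the chimeras the same number marks 1 recipient by the hashtag, so the numbers pair the samples, although the correlations of deviations were only 0.0525, 0.00227 and 0.0317. The alternatives were DESeq2 1.42.0, no TMM, no filter, 20 cells, marker filters, other blocks and leaving out each sample.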

Additional observations from a re-analysis of the deposited data

Results flagged for a closer look

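In the V2 mice the genotype effect (log2 fold change, ∆Foxp3 over WT) in resting Irf7 cells less that in the other resting cells passed the test of the difference (edgeR, adjusted p under 0.05) for the named genes that follow. Among the marker genes it was -1.81 for Ifit3, -1.63 for Ifit1, -1.42 for Isg15 and -1.29 for Irf7. Among GTPases it was -2.25 for Iigp1, -1.79 for Gbp6, -1.24 for Igtp and -0.89 for Gbp2. Other interferon-inducible genes were Oasl2 (-1.73), Rtp4 (-1.63), Zbp1 (-1.05) and Ly6a (-1.04). Plac8 was at -1.83, Il2rb, a chain of the receptors for IL-2 and IL-15, at -1.49 and Lgmn at -1.48. The 2 genes with a larger effect in the Irf7 cells were Srf (2.27) and Drap1 (0.73). Srf, Drap1, Il2rb, Lgmn, Oasl2 and Plac8 lost their calls when 1 sample or another was left out, while those of the 4 markers, Iigp1, Gbp6, Igtp, Rtp4, Zbp1 and Ly6a were kept under every alternative run. The annotation used the level of interferon genes in each cell, so their differences are not independent of it, and no alternative run changed the annotation.

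In the V3 mice the same difference passed with a higher effect in the Irf7 cells than in the others for Igfbp4 (1.84) and Foxp1 (0.88), of the naive and resting list, and for Atp1b1 (2.48), Gm20696 (2.26), Ly6c1 (1.62), Pik3ip1 (1.49), Socs3 (1.40), Itm2a (1.23) and Btg1 (0.56). It was lower for Gzmk (-6.61), Ccl5 (-3.86) and Cxcr3 (-2.31), of the Th1 and cytotoxic list, and for Maf (-2.34) and Ctla2a (-1.96). It was lower too for Cxcl10 (-4.99), Ifitm3 (-4.37), Ly6c2 (-3.39), Gbp7 (-1.05), Ly6a (-1.04), Epsti1 (-1.0) and AW112010 (-0.66). Gzmk and Cxcl10 rest on few UMIs in the Irf7 cells. Pik3ip1 and Igfbp4 alone kept their calls under every alternative run, and most of the others lost theirs without cells that held other cells' markers or without 1 of the WT samples.

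The sorted WT Treg samples hold no Irf7-annotated cell, but 29 of their cells in the cluster that the authors call Treg_furtive carry Irf7 in the authors' marker string. Over 17 and 12 such cells in samples 1 and 2, the type I list summed to 19446 and 29005 CPM, against 10420 and 10593 CPM in the other sorted Treg cells. Ifit1 was at 635 and 792 CPM in them, against 45.6 and 43.6 CPM in the other sorted Treg cells.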

How the results depend on the processing

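Counts of genes past the threshold moved by over 1.5 times in these cases. For the 378 genes of the V2 mice, DESeq2 gave 104, leaving out cells with other cells' markers 161, and leaving out 1 sample 172 to 390. For their 84 differences the counts were 23 with DESeq2, 55 with no filter, 26 and 47 without cells with other or strict markers, 19 with no sample block, and 31 to 86 with 1 sample left out (31 without WT A, 51 without WT B). For the 687 genes of the V3 mice they were 411, 200 without cells with other cells' markers, and 320 to 558, and for their 22 differences 9, 6, 10 with no block, and 10 to 38 (10 without WT 1, 11 without WT 2, 38 without ∆Foxp3 1). For the 10 genes of the chimeras they were 48 with DESeq2, 26 with no filter, 37 at 20 cells, 3 without cells with other markers, 91 with the replicate block, 32 with those 2 groups alone, 21 with 10x channel as a term, and 3 to 12. All 48 DESeq2 calls were higher, and 3 of them were among the 10. DESeq2 gave no adjusted p for 5002 of the 5266 genes. For the 0 differences of the chimeras the counts were 4 with no filter, 2 and 1 without cells with other or strict markers, and 0 to 6. With the replicate block the mice gave 256 (V2) and 590 (V3), where correlations of same-numbered samples were 0.016 and -0.009 and the samples share only a number. In the chimeras Tnfrsf4 lost its call with the block, and Isg15 and Mndal gained one. Other list genes named in this report gained one too. They were Dapl1 (0.62, adjusted p = 4.27e-05), Ccl5 (-1.06, 0.0143), Nfkbia (-0.49, 0.0243), Maf (-1.14, 0.0227) and mt-Nd2 (0.17, 0.0222). Of 12 mitochondrially encoded transcripts, 5 were called higher with the block. Without TMM, 70.8% of V2 calls and 79.7% of V3 calls were higher, against 54.2% and 48.8% with it, and 25% in the chimeras, against 60%.

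The strict marker list and the channel term were chosen after seeing the data. As group means, resting Irf7 cells made up these shares of all cells: 9.26% (∆Foxp3 V2), 6.85% (WT V2), 5.44% (∆Foxp3 V3), 8.13% (WT 9 weeks), 8.83% (∆Foxp3 chimera), 7.59% (WT chimera) and 9.09% (Tconv sort), and shares of the class without cells with other markers 13.9% (∆Foxp3 V2), 18.7% (∆Foxp3 V3), 10.8% (WT 9 weeks), 9.30% (WT chimera) and 13.6% (Tconv sort). Signs turned for effects near 0 or on few cells. In V2 mice Irf7 was 0.020 without TMM and -0.16 to 0.13 with 1 sample left out, and Ifit1 -0.15 without cells with other markers. Without such cells Ly6c1 was 0.061 in V3 mice, and the difference of Ifit3 there was -0.23. With 1 sample left out, that difference ranged from -1.13 to 1.15 for Ifit3, -0.35 to 0.59 for Ifit1, -1.14 to 0.21 for Isg15 and -4.61 to 0.90 for Ly6c2. In the chimeras Irf7 was 0.0018 with no filter, 0.078 with channel as a term and -0.19 to 0.16 with 1 sample left out, and the differences were -0.11 to 0.017 for Irf7 and -0.91 to 0.030 for Ifit1. The cause was not tested.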
